A study of Mus musculus with 9 samples.

Results

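The genes described here are 36 genes of the lysosome, chosen by name: its membrane proteins and transporters, its hydrolases, subunits of its proton pump, and the MiT/TFE transcription factors, which act on lysosomal genes. All 36 were found among the 18303 gene symbols of the count table, and all 36 passed the filter on low counts. RNA had been sequenced from cells sorted as CD45+CD11b+F4/80+, the surface proteins of blood-derived myeloid cells and macrophages, after skin wound tissue of C57BL/6J wild-type mice was digested into single cells. The day 4 group (4 days post injury) held 4 libraries and the day 14 group (14 days post injury) held 5, and the sorted cells received no treatment. The comparison asks how the lysosome genes of wound macrophages differ between an early and a late day of healing. The labels do not say whether each library is a separate animal, so p-values here measure only how these samples spread, and that spread may be technical. Because the cells are a bulk sample, fewer cells of a type and less RNA per cell cannot be told apart.

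The lysosome is the compartment in which a cell takes apart what it has engulfed and what it recycles from itself. Its hydrolases work in acid, which is supplied by the vacuolar ATPase: the V1 sector in the cytosol splits ATP, and the V0 sector in the membrane carries the protons. Macrophages are known for clearing dead cells and debris through lysosomes. The factors Tfeb, Tfe3 and Mitf bind E-box motifs in promoters of lysosomal genes and are held in the cytosol or released to the nucleus by nutrient signals, so their RNA level is not a measure of their activity.

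Total counts per library ran from 26479017 to 57809918 at day 4 and from 17982633 to 50445171 at day 14, and 14537 to 16233 genes held a count in a library. The counts of day 14 replicate 5 stop within Aplp2 on chromosome 9 and are missing from there on and on X and Y: of 811 well-counted genes beyond that point, 807 were at 0 in this library, against 1 gene before it. Of the members, Lamp2, Gla and Tfe3 on X and Hexa and Glb1 on chromosome 9 lie beyond the point, and their values rest on 4 libraries at each day. The genes of the sort markers were present in every library: Ptprc (CD45) averaged 1168 and 1523 CPM at day 4 and day 14, Itgam (CD11b) 1755 and 1288 CPM, and Emr1 (F4/80) 1122 and 1452 CPM. CPM here is a TMM-scaled level relative to the library's counts of genes up to that point, not divided by gene length, so levels are compared between libraries and not between genes.

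Markers of macrophages and of other cells moved with the day. For scale, 15.8% of all genes tested were called higher at day 14 and 15.1% lower. Of 9 macrophage and sort markers 3 were higher and 3 lower. Beside the sort markers, Mrc1 rose 1.73-fold, while Fcgr1 fell 2.15-fold and Mertk 1.28-fold. Of 14 fibroblast markers 10 were lower at day 14, and the summed level of the 13 recorded in all libraries was 11406 to 22406 CPM at day 4 and 6197 to 10004 CPM at day 14. Of 10 dendritic cell markers 7 were higher at day 14, with a sum of 134 to 203 CPM at day 4 and 296 to 377 CPM at day 14. All 4 eosinophil markers tested were higher (7.82 to 13.6 CPM and 25.8 to 33.3 CPM). Of that list, Epx held 5 counts in all libraries together and was not tested, while Prg2 held 2535 counts and rose 2.94-fold. Of 5 keratinocyte markers tested 4 were higher. The sum of the 6 listed was 0.905 to 5.59 CPM at day 4 and 5.78 to 11.8 CPM at day 14. Of 7 neutrophil markers tested 0 passed (0 higher and 1 lower at an unadjusted p under 0.05), with sums of 651 to 1785 CPM and 258 to 1812 CPM. Of the T and NK cell markers, Cd3e, Cd3d, Cd3g, Ncr1 and Nkg7 held 4 to 20 counts each over all libraries, while Cd2, the one tested, rose 7.59-fold, from 4.85 ± 1.54 to 37.5 ± 5.90 CPM (adjusted p = 1.16e-06).

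Tfeb, Tfe3 and Mitf are known to bind the E-box core CACGTG, in lysosomal promoters often as TCACGTGA. Both words were searched in the RefSeq promoter windows of GRCm38.p6, which run from 250 bases before to 50 bases after a gene's start; each word is its own reverse complement, so both strands are covered, and every TCACGTGA also counts as a CACGTG. Windows were found for 31 of the 36 members (40 windows); Npc1, Asah1, Atp6v1b2, Atp6v1c1 and Atp6v1h are named only. TCACGTGA was present in 4 of the 31 members (12.9%), against 1.12% of 27025 genes in the table, and in 4 of their 40 windows, against 0.974% of 32851. CACGTG was present in 8 of the 31 (25.8%), against 8.09% of genes, and in 8 of the 40 windows, against 7.15%. The stretches below are the 8 member promoters that hold it, shown because they carry the letters these factors are known for. Each is written 5′ to 3′ on the gene's own strand, with the motifs in capitals and up to 20 bases on either side.
Gla: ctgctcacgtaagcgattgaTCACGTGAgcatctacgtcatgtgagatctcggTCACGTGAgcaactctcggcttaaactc
Atp6v0d1: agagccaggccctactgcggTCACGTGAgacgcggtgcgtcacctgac
Atp6v1a: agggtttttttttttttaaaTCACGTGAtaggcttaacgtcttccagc
Mcoln1: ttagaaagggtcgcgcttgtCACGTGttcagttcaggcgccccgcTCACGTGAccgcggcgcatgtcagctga
Atp6v0b: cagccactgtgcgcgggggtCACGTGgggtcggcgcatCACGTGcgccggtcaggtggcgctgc
Gaa: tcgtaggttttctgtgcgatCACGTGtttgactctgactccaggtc
Glb1: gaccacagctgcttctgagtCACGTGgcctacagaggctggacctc
Lamp1: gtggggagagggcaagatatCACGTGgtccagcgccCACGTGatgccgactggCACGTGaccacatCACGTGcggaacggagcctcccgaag

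On GRCm38.p6 these stretches lie at chrX:134601173-134601253 (Gla, minus strand), chr8:105566041-105566088 (Atp6v0d1, minus), chr16:44139364-44139411 (Atp6v1a, minus) and chr8:3500428-3500500 (Mcoln1, plus). The others lie at chr4:117887322-117887385 (Atp6v0b, minus), chr11:119267803-119267848 (Gaa, plus), chr9:114401010-114401055 (Glb1, plus) and chr8:13159080-13159171 (Lamp1, plus). The promoter of Lamp1 holds 4 copies of the core, whose first bases lie between 61 and 15 bases before the start, and that of Gla holds the longer word with first bases 228 and 195 bases before it. The single copy of Atp6v0d1 has its first base 4 bases before the start and runs across it. A match describes letters in a window and is not evidence of a bound factor.

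Between day 4 and day 14, 9 of the 36 members fell, 0 rose and 27 did not pass (edgeR's quasi-likelihood test, Benjamini-Hochberg adjusted p under 0.05 over 13296 genes; 14 fell with DESeq2's Wald test). The 9 are Cd68, Scarb2 and Npc2 among the membrane and sterol-handling proteins, Gaa, Glb1 and Gusb among the sugar-cleaving enzymes, and Psap, Ppt1 and Smpd1 among the lipid and protein hydrolases with their activator. None of the 10 proton pump subunits and none of the 3 transcription factors passed. Every fall was modest, from 1.17-fold for Npc2 to 1.53-fold for Gaa.

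The background puts these counts in proportion. Over all genes tested 30.9% were called in either direction, against 25.0% of the members. By direction, 15.1% of all genes were lower at day 14, against 25.0% of the members, and 15.8% of all genes were higher, against 0 of 36 members (0 also at an unadjusted p under 0.05, and 0 with DESeq2 and with limma-voom). The median log2 fold change, day 14 over day 4, was -0.21 over the members and 0.01 over all genes tested, and 28 of the 36 members lay below 0 (27 to 29 under the 3 other scalings tried). The libraries recorded for a gene separated completely by day for 10 members (27.8%), against 25.7% of all genes. No member differed by 2-fold or more, as 10.2% of all genes did, and the members' median SE was 0.096 on the log2 scale, against 0.133 over all genes.

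**Figure D1:**
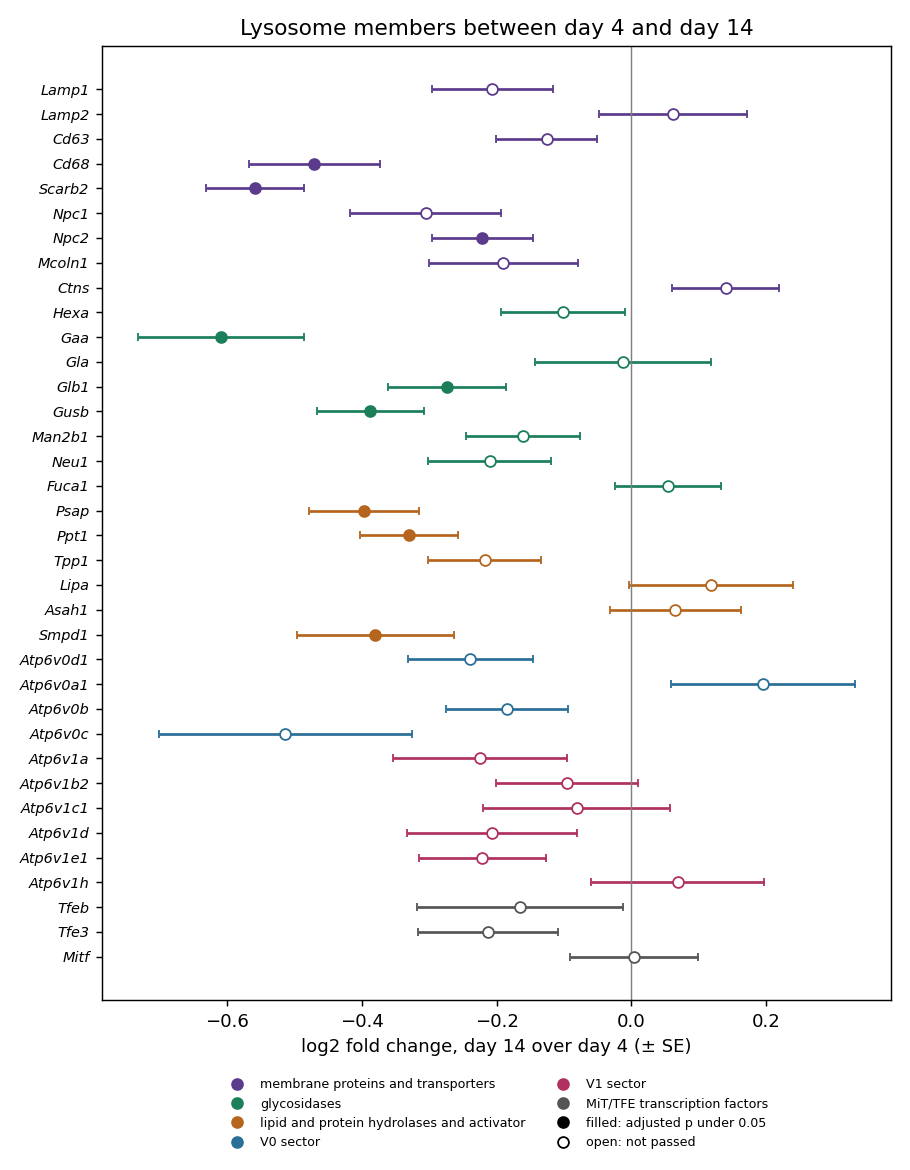
Log2 fold change of each of the 36 members, day 14 over day 4, with its standard error as the bar, grouped by role in colour. Filled points passed an adjusted p of 0.05: all 9 lie to the left of 0, from -0.61 (Gaa) to -0.22 (Npc2), and the proton pump and transcription factor points are open.

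Among the membrane proteins and transporters 3 of 9 fell (33.3%, against 15.1% of all genes), with a median log2 fold change of -0.21. Scarb2 (chromosome 5, 92441311 to 92505657), the receptor that carries glucocerebrosidase to the lysosome, was at 234, 225, 213 and 208 CPM in day 4 replicates 1 to 4 and at 157, 145, 147, 152 and 145 CPM in day 14 replicates 1 to 5. The days were well apart: the lowest day 4 library stood above the highest day 14 library by more than the spread within either day. Scarb2 fell 1.47-fold (log2 fold change -0.56 ± 0.07 SE, adjusted p = 0.000142). Cd68 (chromosome 11, 69664213 to 69666170), a heavily glycosylated membrane protein used as a macrophage marker, was at 666, 496, 651 and 662 CPM at day 4 and at 449, 456, 431, 433 and 463 CPM at day 14. Day 4 replicate 2 stood below the other 3 day 4 libraries and near the day 14 level, though above every day 14 library. Cd68 fell 1.39-fold (-0.47 ± 0.10, adjusted p = 0.00334).

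Npc2 and Npc1 pass cholesterol from hydrolysed lipoproteins to the lysosomal membrane, the first as a soluble carrier and the second as the membrane transporter. Npc2 (chromosome 12, 84754559 to 84773112) was at 1070, 1017, 1032 and 1024 CPM at day 4 and at 899, 892, 835, 936 and 882 CPM at day 14. The days did not overlap, and the day 4 libraries lay close together. Npc2 fell 1.17-fold (-0.22 ± 0.08, adjusted p = 0.042). This call was lost when any 1 of 6 libraries was left out (day 4 replicate 1 or 3, or day 14 replicate 1, 2, 3 or 5; adjusted p = 0.0525 to 0.0866). Npc1 averaged 448 ± 50.8 and 363 ± 47.1 CPM (-0.31 ± 0.11, adjusted p = 0.0552), with day 14 replicate 4 at 434 CPM among the day 4 values. It passed without day 4 replicate 4 (adjusted p = 0.0478) or day 14 replicate 4 (adjusted p = 0.0213).

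The other 5 of this group did not pass. Lamp1, a main glycoprotein of the lysosomal membrane, was at 2140 ± 66.4 CPM (SD, n = 4) at day 4 and 1855 ± 171 CPM (n = 5) at day 14, with no overlap between days (-0.21 ± 0.09, adjusted p = 0.0992). Its partner Lamp2, which also serves chaperone-mediated autophagy, was at 1251 ± 103 and 1306 ± 147 CPM (n = 4 and 4, adjusted p = 0.698). The tetraspanin Cd63 was at 83.0 ± 2.73 and 76.1 ± 5.67 CPM. None of these 3 glycoproteins passed, and whether they differ in this from Cd68 and Scarb2 was not tested. The cation channel Mcoln1 was at 49.8 ± 8.32 and 43.7 ± 2.47 CPM, and passed as lower without day 4 replicate 2 (log2 fold change -0.31, adjusted p = 0.0118), which was its lowest library at 37.5 CPM. The cystine exporter Ctns was at 68.1 ± 2.60 and 75.0 ± 6.46 CPM (adjusted p = 0.195).

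The glycosidases remove sugars from glycogen, glycoproteins and glycolipids. Among them 3 of 8 fell (37.5%, against 15.1% of all genes), with a median log2 fold change of -0.19. Gaa (chromosome 11, 119267963 to 119285458), the acid alpha-glucosidase that breaks down glycogen, was at 110, 88.7, 114 and 124 CPM at day 4 and at 67.9, 60.9, 83.9, 62.1 and 82.4 CPM at day 14. The days did not overlap, but day 4 replicate 2 came close to day 14 replicates 3 and 5. Gaa fell 1.53-fold (-0.61 ± 0.12, adjusted p = 0.0028), the largest fall among the 36. Gusb (chromosome 5, 129989011 to 130003049), the beta-glucuronidase, was at 384, 337, 351 and 373 CPM at day 4 and at 259, 261, 292, 290 and 278 CPM at day 14. Every day 4 library stood above every day 14 library, and Gusb fell 1.31-fold (-0.39 ± 0.08, adjusted p = 0.00314).

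Glb1 (chromosome 9, 114401078 to 114474379), the beta-galactosidase, was at 76.0, 69.1, 81.9 and 85.3 CPM at day 4 and at 67.8, 62.3, 66.0 and 62.2 CPM in day 14 replicates 1 to 4. The days did not overlap, with day 4 replicate 2 nearest to day 14. Glb1 fell 1.21-fold (-0.27 ± 0.09, adjusted p = 0.0347). The call was lost without day 4 replicate 1, 3 or 4 or day 14 replicate 1, 2 or 4 (adjusted p = 0.0539 to 0.0963).

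The other 5 glycosidases gave no call. Hexa, a subunit of beta-hexosaminidase, was at 669 ± 55.5 and 624 ± 21.3 CPM (n = 4 and 4), and Gla, the alpha-galactosidase, at 370 ± 64.8 and 366 ± 33.6 CPM (n = 4 and 4). Man2b1, an alpha-mannosidase, was at 763 ± 61.6 and 683 ± 33.7 CPM. Fuca1, an alpha-fucosidase, was at 99.4 ± 8.35 and 103 ± 4.99 CPM. All 4 had overlapping days and adjusted p-values from 0.17 to 0.955. The sialidase Neu1 was at 158 ± 16.5 and 137 ± 10.2 CPM (-0.21 ± 0.09, adjusted p = 0.0992) and passed without day 4 replicate 2 (adjusted p = 0.0419).

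Of the 6 lipid and protein hydrolases and their activator, 3 fell (50%, against 15.1% of all genes). Their median log2 fold change was -0.27. Psap (chromosome 10, 60277628 to 60302600) encodes prosaposin, the precursor of the saposins that present sphingolipids to their hydrolases. It was at 9433, 7946, 9036 and 8765 CPM at day 4 and at 6450, 6881, 6706, 6659 and 6707 CPM at day 14. The day 14 libraries lay within a narrow band below all day 4 libraries, of which replicate 2 was the lowest. Psap fell 1.32-fold (-0.40 ± 0.08, adjusted p = 0.00326). Ppt1 (chromosome 4, 122836077 to 122859175), which removes palmitate from proteins, was at 285, 266, 277 and 258 CPM at day 4 and at 228, 213, 214, 209 and 216 CPM at day 14. The days did not overlap, and Ppt1 fell 1.26-fold (-0.33 ± 0.07, adjusted p = 0.00481).

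Smpd1 (chromosome 7, 105554360 to 105558389), the acid sphingomyelinase, was at 25.3, 19.5, 27.9 and 27.0 CPM at day 4 and at 17.6, 18.3, 22.3, 18.7 and 19.1 CPM at day 14. It was the one called member whose days overlapped, since day 4 replicate 2 lay below day 14 replicate 3. Smpd1 fell 1.30-fold (-0.38 ± 0.12, adjusted p = 0.0267). The call was lost without day 4 replicate 1, 3 or 4 or day 14 replicate 1, 2 or 4 (adjusted p = 0.0539 to 0.0864).

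The peptidase Tpp1 was at 391.7 ± 33.7 and 337 ± 15.7 CPM (-0.22 ± 0.08, adjusted p = 0.0683) and passed without day 4 replicate 2 (adjusted p = 0.0208). The acid lipase Lipa, which frees cholesterol and fatty acids from cholesteryl esters and triglycerides, was at 685 ± 79.7 and 744 ± 107 CPM (adjusted p = 0.486). The acid ceramidase Asah1 was at 643 ± 53.3 and 673 ± 64.6 CPM (adjusted p = 0.637). Both had overlapping days, and whether they differ in this from Smpd1 was not tested.

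**Figure D2:**
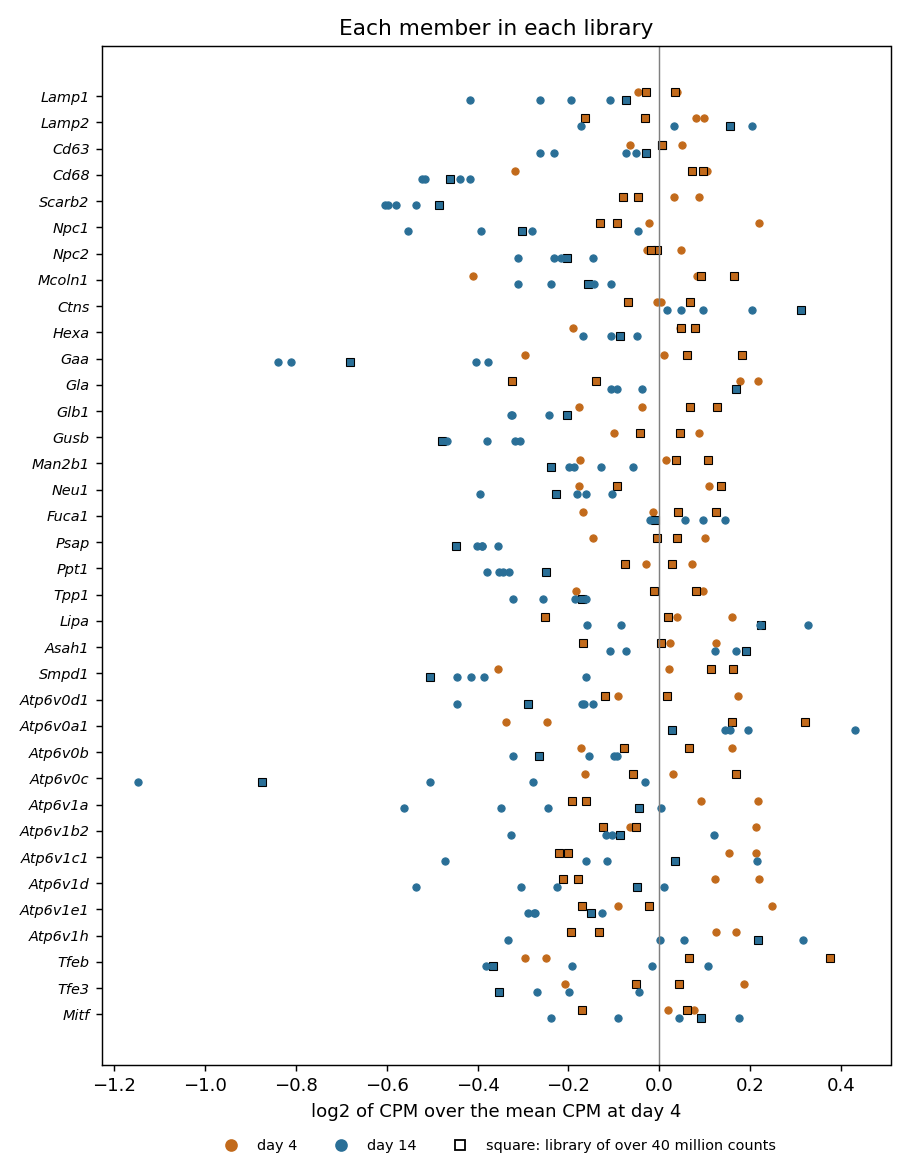
Each member in each library, as log2 of its CPM over its mean CPM at day 4, with day 4 in orange, day 14 in blue and squares for the 3 deeper libraries. The Scarb2, Gusb, Ppt1 and Psap rows separate by day, the V1 rows mix the days, and Atp6v0c has the widest day 14 spread, from 92.8 to 201 CPM.

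Of the 4 members in the membrane-embedded V0 sector, 0 passed (0 higher and 2 lower at an unadjusted p under 0.05; 2 lower with DESeq2). Atp6v0c, the proteolipid of the rotating ring, was at 184, 210, 197 and 231 CPM at day 4 and at 112, 92.8, 169, 145 and 201 CPM at day 14. Day 14 replicate 5 lay inside the day 4 range while replicates 1 and 2 were far below it. Its log2 fold change was -0.51 ± 0.19 with an adjusted p of 0.0565, the largest SE among the 36, and it passed without day 14 replicate 3 (adjusted p = 0.0408) or replicate 5 (adjusted p = 0.0126). Atp6v0d1, the subunit joining the ring to the stalk, was at 234 ± 22 and 198 ± 16.7 CPM with no overlap between days (-0.24 ± 0.09, adjusted p = 0.0687). Atp6v0b, another proteolipid, was at 224 ± 22.8 and 197 ± 13.7 CPM. The proton-channel subunit Atp6v0a1 had the highest fold change of all members, at 152 ± 33.3 and 174 ± 18.5 CPM (0.20 ± 0.14, adjusted p = 0.292).

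Of the 6 members in the ATP-splitting V1 sector, 0 passed (0 higher and 1 lower at an unadjusted p under 0.05; 0 with DESeq2). The nucleotide-binding subunits Atp6v1a and Atp6v1b2 were at 700 ± 97.1 and 599 ± 93.6 CPM, and at 583 ± 63.2 and 546 ± 60.1 CPM. The stalk subunits Atp6v1d and Atp6v1e1 were at 147 ± 22 and 127 ± 18.6 CPM, and at 214 ± 28.0 and 183 ± 9.96 CPM. The regulatory subunits Atp6v1c1 and Atp6v1h were at 230 ± 36.3 and 217 ± 37.4 CPM, and at 156 ± 19.6 and 164 ± 26.9 CPM. All 6 had overlapping days, with log2 fold changes from -0.22 to 0.07 and adjusted p-values from 0.0941 to 0.715.

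The V1 subunits varied together within a day. At day 4, replicate 1 was the highest library for 5 of 6 and replicate 3 the lowest for 5 of 6. At day 14, replicate 4 was the highest for 6 of 6 and replicate 3 the lowest for 5 of 6. Their summed level was 2353, 2096, 1813 and 1859 CPM at day 4 and 1980, 1804, 1508, 2142 and 1750 CPM at day 14, so the days overlapped. The V0 sum did not follow it, at 825, 748, 794 and 892 CPM and at 645, 617, 791, 726 and 786 CPM. The ratio of the V1 to the V0 sum thus ran from 2.09 to 2.85 at day 4 and from 1.90 to 3.07 at day 14. Day 14 replicate 3, the lowest day 14 library for 5 of 6 V1 subunits, also had the highest neutrophil marker sum of its day. That sum was 1812 CPM, against 258 to 836 CPM in the other 4. The pairing was the reverse at day 4, where replicate 1 had the highest neutrophil marker sum (1785 CPM, against 651 to 762 CPM). Day 4 replicate 1 was the highest library of its day for 5 of 6 V1 subunits. The V1 median log2 fold change between days was -0.15 with the neutrophil marker level as a covariate and -0.15 without it. Being a difference between days, it does not bear on the order of libraries within a day. The part of the neutrophil markers in the V1 levels of either library was not tested. Day 14 replicate 3 was also the highest day 14 library for all 5 of the glycosidases recorded in every library. The order of the V1 subunits was in part that of other members. Day 4 replicate 1 was the highest for 20 of all 36 members and for 6 of 9 membrane proteins. Day 14 replicate 3 was the lowest for 14 of the 31 members recorded and for 6 of 8 membrane proteins. Day 14 replicate 4 was the highest for 12 of the 31, and day 4 replicate 3 the lowest for 8 of the 36.

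**Figure D3:**
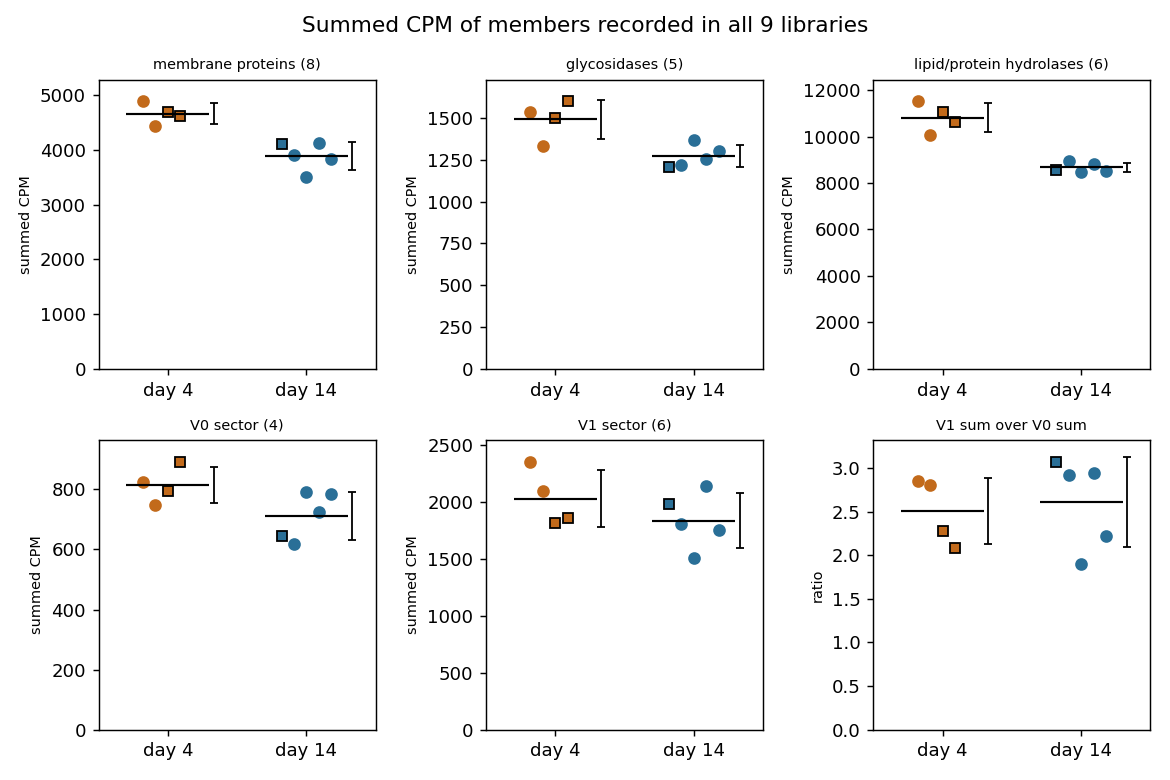
Summed CPM, by role, of the members recorded in all 9 libraries (their number in brackets) and the ratio of the V1 to the V0 sum, one point per library, with the mean as a line, the SD as a bar beside it, and squares for the 3 deeper libraries. The lipid and protein hydrolase sums separate by day (10812 ± 632 and 8670 ± 209 CPM), while the V1 sums (2030 ± 248 and 1837 ± 240 CPM) overlap.

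Summed over the 31 members recorded in all 9 libraries, the level was 19947 ± 1020 CPM at day 4 and 16521 ± 534 CPM at day 14, a mean 17.2% lower, with Psap contributing 8795 and 6681 CPM. Day 4 replicate 2 was the lowest day 4 library for 17 of the 36 members and for 7 of the 8 glycosidases. The same library had the highest fibroblast marker sum, 22406 CPM, against 11406 to 14992 CPM in the other 3. At day 14 the fibroblast marker sums were highest in replicates 5 and 3, at 10004 and 8978 CPM, against 6197 to 7045 CPM in the others. There, the level summed over the 31 members was lowest in these libraries (16316 and 15767 CPM, against 16629 to 17228 CPM). The summed level of the 5 glycosidases recorded in every library was instead highest in them (1304 and 1366 CPM, against 1208 to 1256 CPM). The part of the fibroblast markers in these values was not tested.

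The transcription factors among the members gave no call (0 of 3, also at an unadjusted p under 0.05 and with DESeq2). Tfeb was at 15.9, 16.5, 20.5 and 25.4 CPM at day 4 and at 15.2, 15, 21.1, 17.1 and 19.3 CPM at day 14. The days covered nearly the same range (-0.16 ± 0.15, adjusted p = 0.435). Tfe3 was at 127, 96.3, 107 and 115 CPM at day 4 and at 87.1, 92.3, 108 and 96.9 CPM in day 14 replicates 1 to 4. Its days overlapped through day 14 replicate 3 (-0.21 ± 0.10, adjusted p = 0.142), and without that library it passed as lower (-0.28, adjusted p = 0.0476). Mitf was at 123, 118, 122 and 103 CPM at day 4 and at 124, 120, 109, 132 and 98.8 CPM at day 14, with a log2 fold change of 0.00 ± 0.10 (adjusted p = 0.977). Its libraries mixed across the days.

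Set beside the promoter motifs printed above, 0 of the 4 members with TCACGTGA fell, 2 of the 8 with CACGTG fell (Gaa and Glb1), and 7 of the 23 with a window but no CACGTG fell. The median log2 fold changes of the last 2 groups were -0.22 and -0.21. Over all 36 members 25% fell, against 15.1% of all genes.

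Another 119 genes of the lysosome and of autophagy were listed by function, 117 were in the table and 113 were tested. Of these 34 were lower at day 14 (30.1%, against 15.1% of all genes) and 8 higher (7.08%, against 15.8%). In either direction 37.2% were called, against 30.9% of all genes, and the median log2 fold change was -0.15. Of the 26 other hydrolases and activators, 15 fell (57.7%, against 15.1% of all genes) and 1 rose (3.85%, against 15.8%). Acp5, the tartrate-resistant acid phosphatase, was at 378, 214, 225 and 305 CPM at day 4 and at 48.9, 45.7, 62.8, 58.7 and 47.0 CPM at day 14. Every day 4 library stood far above every day 14 library, and Acp5 fell 5.33-fold (-2.41 ± 0.17, adjusted p = 1.47e-06). Galns, a sulfatase of keratan and chondroitin sulfate, fell from 52.1 ± 4.54 to 23.8 ± 2.30 CPM, and the acid phosphatase Acp2 from 228 ± 6.17 to 152 ± 3.29 CPM. Ctsa, the protective protein that holds Neu1 and Glb1 in a complex, fell from 992 ± 129 to 779 ± 23.7 CPM (adjusted p = 0.0172).

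Enzymes of that list that act on heparan sulfate were picked out after their values were seen. Idua, Sgsh, Naglu and Hgsnat fell, with Naglu at 63.0 ± 10.6 and 34.0 ± 5.06 CPM and Sgsh at 54.9 ± 9.44 and 33.1 ± 5.55 CPM. The iduronate sulfatase Ids, on X, rose, from 136 ± 9.87 to 210 ± 30.0 CPM (n = 4 and 4, 0.63 ± 0.11, adjusted p = 0.00186).

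Of 10 genes that route enzymes to the lysosome 5 fell (50%, against 15.1% of all genes). Their median log2 fold change was -0.37. Gnptab, which makes the mannose 6-phosphate tag on new hydrolases, was at 207, 163, 153 and 164 CPM at day 4 and at 82.5, 82.4, 90.1, 95.2 and 89.7 CPM at day 14. The days were far apart, and Gnptab fell 1.95-fold (-0.97 ± 0.10, adjusted p = 2.25e-05). Igf2r, the large mannose 6-phosphate receptor, was at 327, 239, 205 and 198 CPM at day 4 and at 116, 88.6, 115, 136 and 124 CPM at day 14. It fell 2.09-fold with no overlap (-1.06 ± 0.16, adjusted p = 0.000327). The small receptor M6pr fell from 425 ± 41.5 to 322 ± 21.2 CPM and the adaptor Gga2 from 54.2 ± 1.61 to 40.6 ± 1.43 CPM. The fifth was the sorting receptor Sort1, from 78.0 ± 4.88 to 65.6 ± 2.15 CPM.

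**Figure D4:**
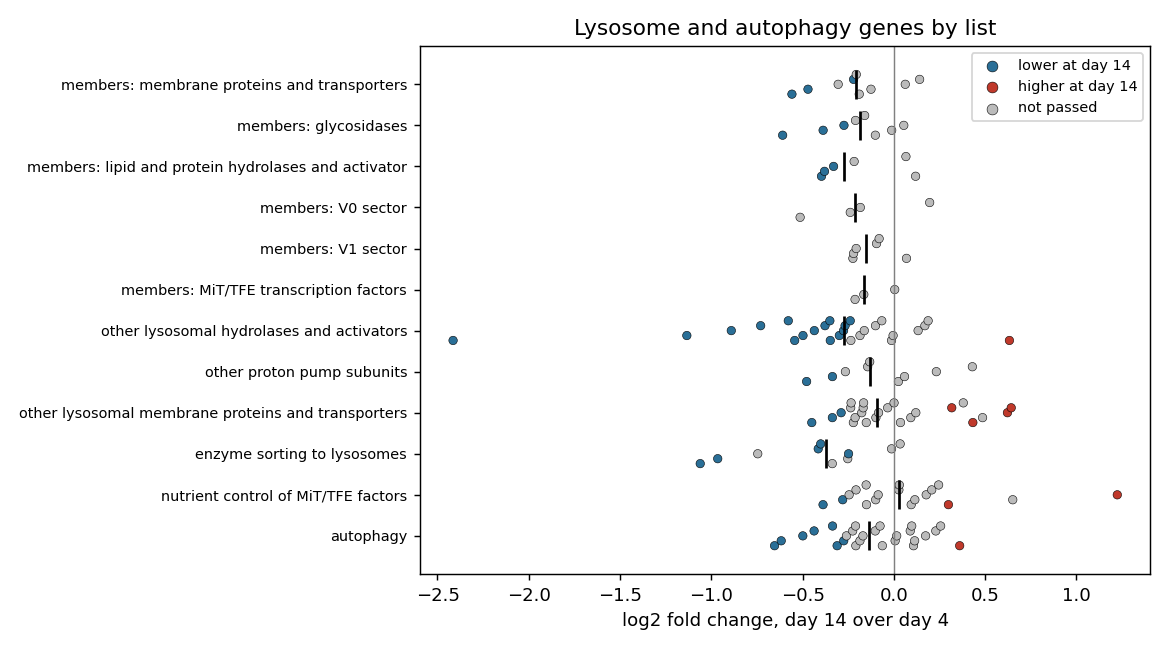
Log2 fold change, day 14 over day 4, of every member by role and of every other listed gene tested, one point per gene, with the median of each list as a black line, genes called lower in blue, called higher in red and not passed in grey. The sorting list has its median at -0.37, and the nutrient control list at 0.03 with Rragd at 1.22.

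Outside the 10 member subunits, 9 other pump genes were tested and 2 fell (22.2%, against 15.1% of all genes). These were Tcirg1, the a3 form of the proton-channel subunit, from 458 ± 52.8 to 329 ± 25.5 CPM (-0.48 ± 0.10, adjusted p = 0.00312), and the accessory subunit Atp6ap1, from 533 ± 41.6 to 422 ± 6.74 CPM (n = 4 and 4, adjusted p = 0.0148). Tcirg1 was thus lower at day 14 and the a1 form, Atp6v0a1, was not called; the difference between the forms was not tested. Atp6v0e was at 146 ± 22 and 121 ± 5.10 CPM (adjusted p = 0.0539, and adjusted p = 0.0236 without day 4 replicate 2).

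Of the 24 other membrane proteins 3 were lower (12.5%) and 4 higher (16.7%), shares near those over all genes (15.1% and 15.8%). The arginine sensor Slc38a9 rose from 42.8 ± 2.27 to 65.9 ± 7.81 CPM and the cation channel Mcoln2 from 44.9 ± 4.27 to 70.1 ± 11.9 CPM, while the channel Tpcn1 fell from 113 ± 16.2 to 82.9 ± 4.67 CPM. Laptm5 was at 1569 ± 150 and 1480 ± 91.3 CPM (adjusted p = 0.515). Of 18 genes listed under the nutrient signals that act on the MiT/TFE factors, Tfec among them, 2 fell and 2 rose (22.2% called, against 30.9% of all genes). Rragd, a GTPase of the mTORC1 pathway, rose 2.34-fold from 5.62 ± 1.32 to 13.0 ± 2.16 CPM (1.22 ± 0.18, adjusted p = 0.000304). Lamtor1, the anchor of the Ragulator complex, fell from 56.0 ± 3.71 to 42.8 ± 2.31 CPM. Tfec, a relative of Tfeb rather than a nutrient signal, fell from 49.2 ± 5.36 to 40.6 ± 1.13 CPM (adjusted p = 0.0244). That call was lost without day 4 replicate 1, 3 or 4 or day 14 replicate 2 (adjusted p = 0.0524 to 0.0605). Fnip2, a folliculin partner, was at 492 ± 121 and 502 ± 116 CPM.

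Of 26 autophagy genes 7 fell (26.9%, against 15.1% of all genes) and 1 rose (3.85%, against 15.8%). The share called in either direction (30.8%) was near that over all genes (30.9%). Atg13, of the initiating kinase complex, fell from 50.4 ± 2.04 to 32.0 ± 2.18 CPM, and Wipi1, which reads the lipid of the forming autophagosome, from 15.6 ± 2.33 to 10.2 ± 0.829 CPM. The kinase Ulk2 rose from 102 ± 3.70 to 130 ± 6.03 CPM. The cargo receptor Sqstm1 was at 996 ± 176 and 1006 ± 77.8 CPM (adjusted p = 0.936).

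Depth and the marker lists bear on these counts. In the 6 shallower libraries alone 3 of the 9 members remained called (Scarb2, Gusb and Ppt1) and Atp6v0a1 was called higher (0.52, adjusted p = 0.0189), with a members' median of -0.20. In the 3 deeper libraries, 2 of day 4 and 1 of day 14, 12 members were called lower and Ctns, Gla and Atp6v1h higher, with a median of -0.22; the lone day 14 library is assumed there to vary like those of day 4. The V1 subunits differed between these sets: all 6 lay below 0 in the shallower libraries (median -0.33) and 2 of 6 in the deeper ones (median 0.12). With the neutrophil marker level as a covariate 6 of the 9 members remained called and the members' median was -0.18. Npc2, Glb1 and Smpd1 were not called there (adjusted p = 0.0626 to 0.0709). With the fibroblast marker level as a covariate only Cd68 remained called and the members' median was -0.33, with the median SE at 0.189. With the dendritic cell marker level as a covariate 0 of 36 were called and the median was -0.04, with the median SE at 0.248. Neither the fibroblast nor the dendritic cell marker sum overlapped between days, so either of these and the day cannot be told apart. The covariate was not this sum but the mean log level of all markers listed. In it Thy1 (fibroblast) and Xcr1 (dendritic cell), which are missing for day 14 replicate 5, entered as uncounted in that library. This lowers the covariate there, and whether the covariate itself overlapped between days was not checked.

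Because the library kit does not mark the strand, reads of overlapping genes on opposite strands cannot be told apart. Among the members called, exons of Ppt1 overlap those of Cap1 on the opposite strand, and exons of Glb1 overlap those of Tmppe on the same strand. Lamp1, Hexa, Npc1, Atp6v0b, Atp6v1e1 and Atp6v1h also share exon bases with a neighbour, so their values are uncertain in this respect.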

How the data were processed

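For the 9 libraries the authors deposited estimated counts, with 18303 gene symbols in rows; a mean of 17.2% of the values per library were not whole, and all were rounded. The tools were HISAT2 2.1.0, SAMtools 1.4, CASAVA 1.8, DESeq2 and Partek 6.6 on build mm10, per the submitters' processing notes; the role of each tool, the annotation and any filters are not given in the sources used here. Per the labels' protocols, libraries were made with the TruSeq RNA kit v2, which does not mark strand. The authors' table of normalized values was not used.

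Genes were tested with edgeR 4.0.16 in R 4.3.3 (filterByExpr, TMM, robust glmQLFit, two-sided glmQLFTest), calling adjusted p-values under 0.05 (Benjamini-Hochberg over 13296 genes). Library sizes and TMM factors came from genes up to Aplp2, at which day 14 replicate 5 ends, in all 9 libraries. The 1504 genes from there on, which the table does not hold for that library, were fitted in the 8 others with the same scaling, and p-values of both were adjusted together. SE values were derived from the F statistic. By symbol 17100 genes matched RefSeq GRCm38.p6 and 1113 by an older name; 90 did not match. The test was run on simulated data first.

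The members and lists were chosen with earlier results of these data known, so lists are described by counts and medians and not tested. All members are named, with values in every library for those called and for the transcription factors; of each other list the 3 genes with the lowest p and the one with the highest mean CPM are named. Other genes named because they were few in a count, or in the heparan sulfate group, and the values per library shown for Acp5, Gnptab, Igf2r and Atp6v0c, were picked with their values in view.

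The alternatives tried were scaling by RLE, upper quartile or total counts, DESeq2 1.42.0, limma-voom (limma 3.58.1), no low-count filter, a minimum of 5 CPM in 4 libraries, dispersion without robust fitting, ignoring the missing genes, each library left out in turn, the 6 shallower libraries, and log10 library size, fibroblast or neutrophil marker level as a covariate. The 3 deeper libraries and the dendritic cell marker covariate were added after seeing the data. A marker covariate was the mean log level of all markers of its list. Markers missing for day 14 replicate 5 entered as uncounted in that library.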

Additional observations from a re-analysis of the deposited data

Results flagged for a closer look

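Of 72 groups (36 members at each day) tested for 1 library far from the others, 2 held such a library. That is a smaller share than the about 1 in 20 that chance gives. Both were day 4 replicate 2. Cd68 was at 496 CPM there, against 651 to 666 CPM in the other 3 day 4 libraries. Hexa was at 587 CPM there, against 690 to 707 CPM in the other 3. The same library had the highest fibroblast marker sum of its day, whose part in these values was not tested. Of the day 14 libraries with the highest fibroblast marker sums, replicate 5 had the highest Cd68 of its day (463 CPM) and replicate 3 the lowest (431 CPM).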

How the results depend on the processing

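Of 24 alternatives, 20 gave 6 to 13 members lower (9 as reported) and 22 gave 0 higher. DESeq2 gave 14 lower. The 6 shallower libraries gave 3 lower and 1 higher, with 1037 of all genes higher and 1038 lower, and 3 of the other lysosome and autophagy genes higher and 14 lower. The 3 deeper libraries gave 3 members higher and 21 other genes higher. With the fibroblast marker covariate 1 member was lower, 362 of all genes were higher and 265 lower, and 0 of the other genes were higher and 9 lower. With the dendritic cell marker covariate 0 members were lower, 99 of all genes were higher and 151 lower, and 0 other genes were higher and 1 lower. Leaving out each library in turn gave 1565 to 2409 of all genes higher and 1496 to 2418 lower, 6 to 12 members lower, and 7 to 11 other genes higher and 24 to 43 lower. Signs of members that were not called changed more widely: 15 of 36 members changed sign with the dendritic cell marker covariate, 6 in the shallower and 6 in the deeper libraries, 3 with the fibroblast marker covariate, and Gla did so in 9 of the 24 alternatives. Gla was called higher in the 3 deeper libraries (log2 fold change 0.38, adjusted p = 0.0126); 0 of the 9 called members changed sign in any alternative. Outside the members, single genes were followed only for the 3 of lowest p and the most abundant of each list. Ids, Idua, Sgsh, Naglu, Hgsnat and Sort1 were therefore not followed. Of the called genes that were followed, Ctsa (0.029) and Atp6ap1 (0.038) changed sign with the dendritic cell marker covariate. The cause was not tested. Scarb2, Gusb and Cd68 were called in 22 of the 24 alternatives, Gaa, Psap and Ppt1 in 21, Smpd1 in 13, Glb1 in 11 and Npc2 in 10.

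No paired analysis was possible because the labels number the samples and give no replicate numbers shared by the days. The number of libraries, 4 and 5, limits what the comparison can call, and a member that did not pass is not shown to be equal between days.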
